A study of Homo sapiens with 6 samples.

Results

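GRHL1, GRHL2, GRHL3, OVOL1, OVOL2, ELF3, EHF, KLF4, KLF5 and ESRP1 encode transcription and splicing factors that hold epithelial cells in their state. They were taken as a list of gene names, chosen with earlier results of these data known. Every probe set annotated to 1 of them alone was read in MCF-10A cells with and without added CRB3. This gave 23 of the 54613 probe sets tested and 10 of the 19775 genes with a name. MCF-10A is a non-tumorigenic line of human breast epithelium that has become immortal and depends on added EGF. Cells were infected with a pNG-Crb3 retrovirus, which carries the apical polarity protein CRB3, or with the pNG vector control, and both were selected with puromycin. RNA came from monolayers that were still proliferating in the usual medium at 70% confluence, from 3 samples of each group, with 1 array each. CRB3 was thus expressed from a virus in selected populations of a single line, and nothing in the sources used here ties the 3 samples of a group to separate infections, so the p-values cover only the variation among these samples, which may be technical.

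As background, the 3 grainyhead-like factors GRHL1, GRHL2 and GRHL3 bind DNA at genes of cell junctions and of the epidermal barrier and switch them on. OVOL1 and OVOL2 are zinc finger repressors of genes that drive epithelial-to-mesenchymal transition, and ELF3 and EHF belong to the epithelial branch of the ETS factors. KLF4 promotes terminal differentiation in stratified epithelia, KLF5 is typical of their dividing layers, and ESRP1 is an RNA-binding protein that sets the epithelial choice of exons in transcripts such as FGFR2 and CD44. In carcinoma and mammary cells several of these factors, though not all, are known to act against ZEB1, SNAI2 or other inducers of the mesenchymal state.

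The transcripts of 4 of the 10 factors, GRHL3, ELF3, KLF4 and OVOL2, rose in CRB3-expressing cells, and none fell. A gene was read in its brightest probe set (the one with the highest mean over the 6 arrays), values are log2 units of the Robust Multichip Average (RMA) method, and a gene was called at an adjusted p under 0.05 from limma and a fold change above 1.5. Among all genes, 1.43% were called higher and 0.465% lower. In limma, 6 of the 10 factors were higher and 0 lower at an unadjusted p under 0.05, against 10.4% and 8.39% of all genes. The median log2 fold change was 0.22 for the 10 factors and 0.0066 for all genes. For 6 of the 10 the lowest CRB3-expressing value exceeded the highest vector control value, against 14.5% of all genes. The reverse held for 0 of the 10, against 12.1% of all genes. Over probe sets, 8 of 23 were higher and 0 were lower, against 0.948% and 0.363% of all probe sets, and 12 were higher and 0 lower at an unadjusted limma p under 0.05, against 8.15% and 8.16% of all probe sets. Probe sets of 1 gene read the same RNA, so they are not independent of each other. The factors were not chosen blind to these data, so the shares of all genes are a description and not a test of the list.

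**Figure D1:**
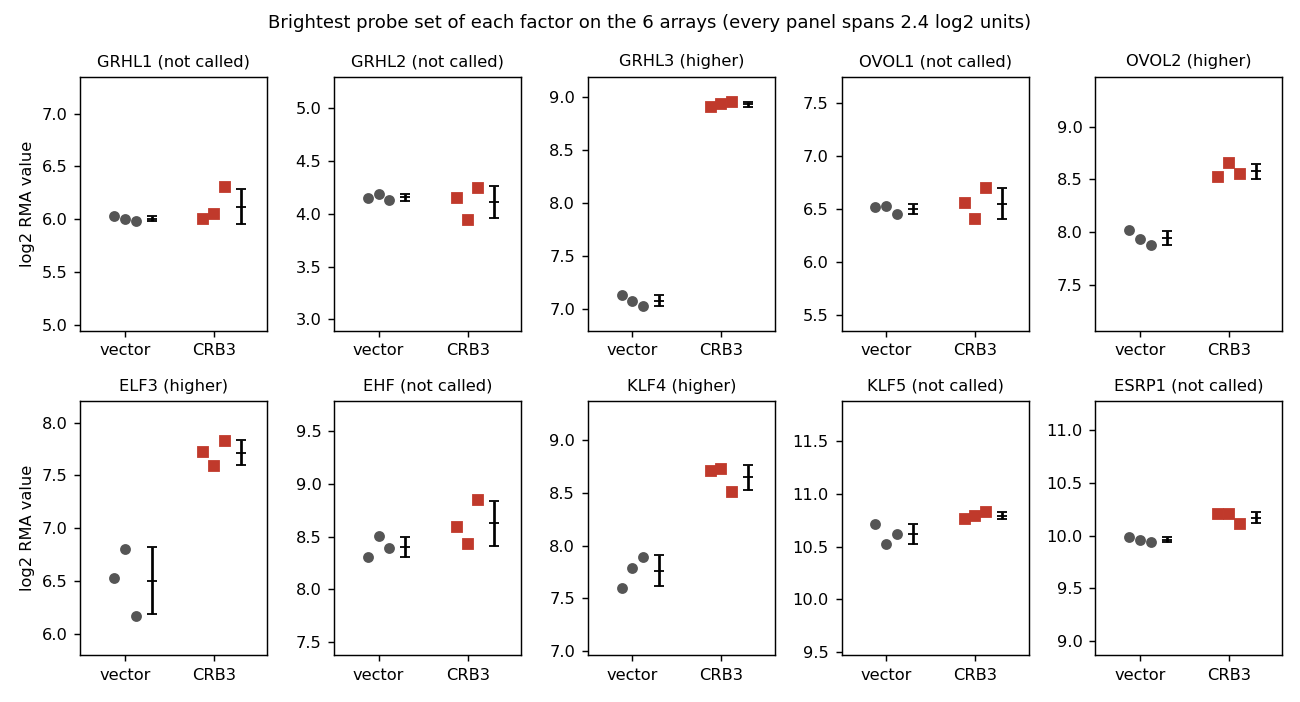
Log2 RMA value (y axis) of the brightest probe set of each factor on the vector control arrays (grey circles) and the CRB3-expressing arrays (red squares), with the mean and SD (n = 3) as bars; each panel spans the same range. GRHL3 moved from 7.08 to 8.93 with very little spread, ELF3, KLF4 and OVOL2 also separated by group, and GRHL2 and EHF overlapped between groups.

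CRB3 itself, which checks the labels, rose 20.1-fold (limma adjusted p = 1.83e-07), with no overlap between groups. Of 14 mammary epithelial markers 10 were measured, and their means over the 6 arrays lay between 9.97 and 13.60, far above the array medians of 5.84 to 5.88. Of these 10, KRT14, CDH1 and KRT8 were called higher and 0 lower, against 1.43% and 0.465% of all genes. Under the fold threshold, EPCAM and KRT18 rose by 0.38 and 0.36 on the log2 scale and ITGA6 fell by 0.36 (limma adjusted p = 0.0388). KRT5, ITGB4, EGFR and LAMB3 had log2 fold changes between -0.040 and 0.021. The mean of the 10 ranged from 11.49 to 11.52 over vector control arrays and from 11.90 to 11.99 over CRB3-expressing arrays. Of 17 measured markers of fibroblasts, endothelium, blood and fat, 11 had means under 6 in both groups, among them the leukocyte antigen PTPRC (4.16 in vector control and 4.19 in CRB3-expressing cells) and the endothelial cadherin CDH5 (4.16 and 4.15). Others lay above the array medians, among them the blood marker CD14 (8.32 and 8.27), the fibroblast marker COL1A1 (8.01 and 8.02) and the endothelial marker PECAM1 (6.61 and 6.55). Probe sets of a gene disagreed in level, and these are the brightest. In vector control cells the other COL1A1 probe sets had means of 6.55, 5.79, 4.83 and 3.63. Those of PECAM1 had 5.77, 5.26, 4.52 and 3.59, so expression of these 2 genes is not shown. The mean log2 value of these 17 ranged from 5.58 to 5.61 over vector control arrays and from 5.50 to 5.61 over CRB3-expressing arrays. Only DCN, the matrix proteoglycan decorin, was called among them, with a fall of 0.76 on the log2 scale (limma adjusted p = 0.00249). Another DCN probe set was also called lower (-0.81), and a further one was not (-0.42). The remaining ones, under 6 in both groups, lay between -0.11 and 0.19 and were not called. The part of these markers in the results was not tested, and in bulk RNA fewer cells of a type and less RNA per cell cannot be told apart.

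Of the 4 factors that rose, GRHL3, ELF3 and KLF4 have a promoter in the RefSeq table of GRCh38.p14, and these are printed because they hold annotated starts of genes whose transcripts rose. Each runs 5′ to 3′ from 250 bases before to 50 after an annotated start, and GRHL3 has 2 such starts. Capitals mark CACCTG or CAGGTG (the E-box that ZEB and SNAI factors bind), GGGTG or CACCC (a KLF box) and GGAAG or CTTCC (an ETS box), searched on both strands, and no 2 marked matches overlap.
GRHL3, chr1:24319107-24319406, plus strand: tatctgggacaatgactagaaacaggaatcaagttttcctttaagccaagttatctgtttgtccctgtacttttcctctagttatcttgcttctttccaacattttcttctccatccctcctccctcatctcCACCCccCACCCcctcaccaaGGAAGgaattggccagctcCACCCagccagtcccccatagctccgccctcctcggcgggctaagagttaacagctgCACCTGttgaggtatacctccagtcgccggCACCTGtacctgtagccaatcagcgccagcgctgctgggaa
GRHL3, chr1:24322790-24323089, plus strand: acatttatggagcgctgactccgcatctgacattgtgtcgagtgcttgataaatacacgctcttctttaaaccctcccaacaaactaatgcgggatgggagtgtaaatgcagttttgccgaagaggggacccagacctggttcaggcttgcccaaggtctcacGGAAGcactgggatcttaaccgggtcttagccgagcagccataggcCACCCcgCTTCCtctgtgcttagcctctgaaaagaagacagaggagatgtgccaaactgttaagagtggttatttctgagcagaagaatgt
ELF3, chr1:202010337-202010636, plus strand: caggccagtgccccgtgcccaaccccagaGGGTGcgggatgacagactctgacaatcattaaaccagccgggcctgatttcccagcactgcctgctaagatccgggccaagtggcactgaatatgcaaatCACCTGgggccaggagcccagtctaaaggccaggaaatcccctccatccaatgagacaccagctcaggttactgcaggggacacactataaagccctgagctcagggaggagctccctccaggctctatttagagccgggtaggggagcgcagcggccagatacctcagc
KLF4, chr9:107489720-107490019, minus strand: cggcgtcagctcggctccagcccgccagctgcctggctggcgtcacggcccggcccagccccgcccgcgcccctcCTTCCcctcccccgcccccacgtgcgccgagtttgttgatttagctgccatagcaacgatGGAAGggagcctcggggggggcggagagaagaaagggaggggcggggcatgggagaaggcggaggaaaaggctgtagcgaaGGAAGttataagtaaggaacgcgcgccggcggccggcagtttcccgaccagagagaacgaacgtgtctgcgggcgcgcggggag
The E-box was found in the first GRHL3 promoter, with 2 matches, and in that of ELF3, with 1. Of all 35116 promoters of this length in the table, 20.6% held it. The KLF box was found in both GRHL3 promoters and that of ELF3 (59.9% of all promoters), and the ETS box in both of GRHL3 and in that of KLF4 (71.9% of all). Over the 9 promoters of the 6 factors in the table, which are GRHL1, GRHL3, ELF3, EHF, KLF4 and KLF5, the E-box was in 2, the KLF box in 6 and the ETS box in 3. The full grainyhead site AACCGGTT was in 0 of the 9 and in 0.134% of all promoters. These matches describe letters in a short window, and no binding was measured.

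GRHL3, a grainyhead-like factor of the epidermal barrier, had the largest rise of the 10. Its log2 value was 7.13, 7.07 and 7.03 on the vector control arrays and 8.91, 8.94 and 8.96 on the CRB3-expressing arrays. Arrays of a group lay close together, far closer than the distance between groups. The means were 7.08 ± 0.051 (SD, n = 3) and 8.93 ± 0.022 (SD, n = 3), a 3.63-fold rise (log2 fold change 1.86, SE 0.060, limma adjusted p = 8.55e-07). GRHL3 has this single probe set, so no second probe set checks it.

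GRHL1 was read by a pair of probe sets whose calls disagreed. The brighter had means of 6.01 in vector control and 6.12 in CRB3-expressing cells, with overlapping groups and a log2 fold change of 0.11 (95% interval -0.081 to 0.31). The dimmer gave log2 values of 5.46, 5.73 and 5.61 on the vector control arrays and of 6.34, 6.18 and 6.11 on the CRB3-expressing arrays. It had a log2 fold change of 0.61 (95% interval 0.41 to 0.81, limma adjusted p = 0.00581), an interval that does not overlap that of the brighter one. Without CRB3-expressing replicate 1 or vector control replicate 1 its log2 fold change was 0.55 or 0.54, under the fold threshold. Both probe sets lay near the array median, and what part of the transcript each reads was not examined here.

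GRHL2, the grainyhead-like factor most often tied to E-cadherin expression, had 1 probe set with means of 4.16 in vector control and 4.11 in CRB3-expressing cells. This is under the array median and not known to exceed background, and the log2 fold change of -0.042 (95% interval -0.23 to 0.15) says little about the gene. Its sign turned when CRB3-expressing replicate 2 was left out (0.042).

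OVOL2 rose while OVOL1, its close relative, did not pass the test. The brighter OVOL2 probe set gave log2 values of 8.02, 7.94 and 7.88 in vector control and 8.52, 8.66 and 8.55 in CRB3-expressing cells. The groups were well apart, at means of 7.95 ± 0.069 and 8.58 ± 0.072 (SD, n = 3). The 1.55-fold rise (log2 fold change 0.63, SE 0.069, limma adjusted p = 0.00108) was just past the fold threshold. The second OVOL2 probe set, at 5.14 and 5.38, leaned the same way by 0.24 (95% interval 0.054 to 0.43, limma adjusted p = 0.184) and was not called. For OVOL1, the log2 fold change in the brighter probe set was 0.050 (95% interval -0.14 to 0.24) with overlapping groups, which turned to -0.021 without CRB3-expressing replicate 3. The dimmer one, with means of 5.66 and 5.97, had a log2 fold change of 0.31 (95% interval 0.14 to 0.48, limma adjusted p = 0.0673), and its groups did not overlap.

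ELF3, an ETS factor of simple and differentiating epithelia, rose in all 3 of its probe sets. In the brightest, log2 values were 6.53, 6.81 and 6.17 in vector control and 7.72, 7.59 and 7.83 in CRB3-expressing cells. The vector control arrays were the more scattered, with an SD of 0.32 against 0.12, yet the groups did not overlap. The rise was 2.31-fold (log2 fold change 1.21, SE 0.14, limma adjusted p = 0.00179). The second went from 4.97 to 6.11, a log2 fold change of 1.14 (limma adjusted p = 0.000379). Its vector control level is under the array medians and not known to exceed background, so this is a difference of array values. The third went from 4.49 to 5.22, a log2 fold change of 0.73 (limma adjusted p = 0.00442), and was under 6 in both groups.

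EHF, the nearest relative of ELF3 among the 10, was not called in any of its 6 probe sets. The brightest had means of 8.40 ± 0.097 and 8.63 ± 0.21 (SD, n = 3) and a log2 fold change of 0.22 (95% interval -0.020 to 0.47), which leaves out a rise of 1.5-fold (0.58). The other 5 had log2 fold changes between -0.081 and 0.057, and the groups overlapped in all 6. A pair of these was designed on the same accession. ELF5, a luminal ETS factor whose gene lies beside EHF, stayed dim, with means of 4.78 and 5.02 and a log2 fold change of 0.24 (limma adjusted p = 0.348).

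KLF4 rose in both of its probe sets. The brighter gave log2 values of 7.60, 7.78 and 7.89 in vector control and 8.70, 8.73 and 8.51 in CRB3-expressing cells. The lowest CRB3-expressing array was thus well above the highest vector control array. The rise was 1.85-fold (log2 fold change 0.89, SE 0.093, limma adjusted p = 0.000862). The second had a log2 fold change of 0.61 (95% interval 0.40 to 0.82, limma adjusted p = 0.00650), with 0.52 without CRB3-expressing replicate 1 and 0.57 without vector control replicate 2, both under the fold threshold.

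KLF5, the Kruppel-like factor of dividing epithelial layers, had log2 values of 10.71, 10.52 and 10.62 in vector control and 10.76, 10.79 and 10.83 in CRB3-expressing cells in its brighter probe set. The groups did not overlap, but the difference was small, with a log2 fold change of 0.18 (95% interval 0.020 to 0.33, limma adjusted p = 0.249). The second probe set leaned the other way by -0.051 (95% interval -0.30 to 0.20) with overlapping groups.

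ESRP1 was bright in both groups and differed little. Log2 values in its brighter probe set were 9.99, 9.96 and 9.94 in vector control and 10.20, 10.20 and 10.11 in CRB3-expressing cells. All 3 CRB3-expressing arrays lay above the vector control arrays, as they did in the second probe set. The log2 fold changes were 0.21 (95% interval 0.069 to 0.35, limma adjusted p = 0.123) and 0.12 (95% interval -0.016 to 0.26, limma adjusted p = 0.373), both below a 1.5-fold rise over the whole interval. Its partner ESRP2 was not analysed here.

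**Figure D2:**
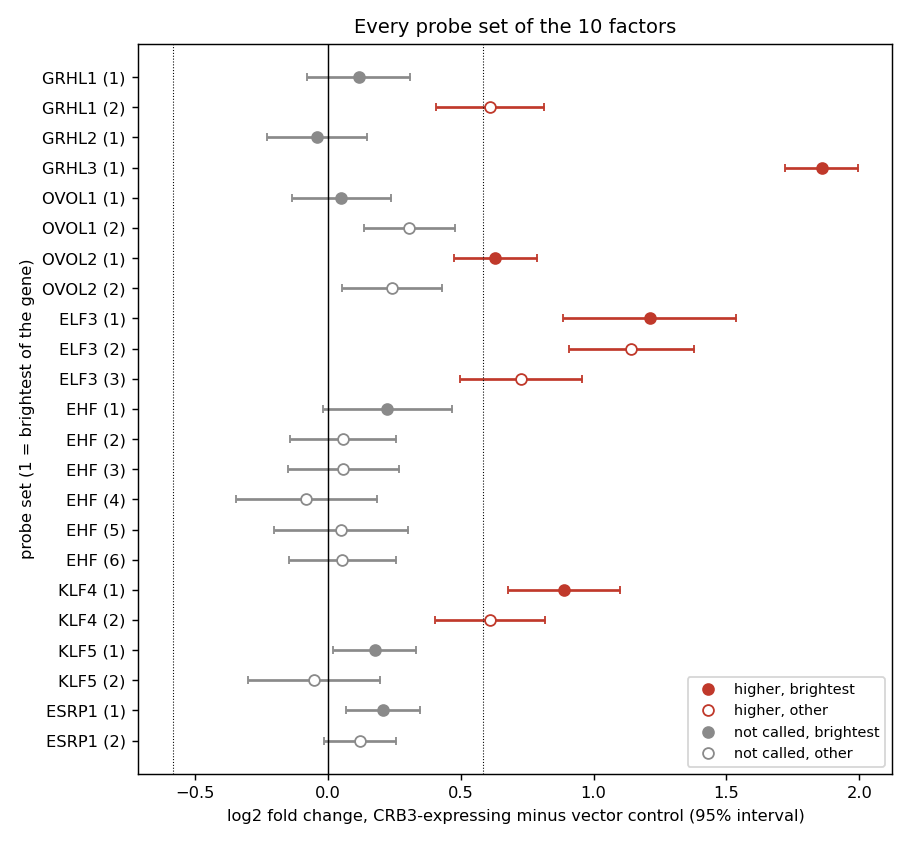
Log2 fold change of CRB3-expressing over vector control cells with its 95% interval (x axis) for each of the 23 probe sets (y axis, numbered from the brightest of a gene), where filled points are the brightest probe sets, red is called higher and dotted lines mark a 1.5-fold change. ELF3 and KLF4 are red in every probe set, and GRHL1 and OVOL2 in 1 of their pair. None of the 6 probe sets of EHF is red, with the brightest at 0.22 and the others between -0.081 and 0.057.

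None of the measured genes beside the factors was called. Of 18 measured nearest protein-coding neighbours 0 passed in limma, against 1.43% of all genes called higher and 0.465% called lower. At these shares a list this short may hold no call. At an unadjusted limma p under 0.05, 0 were higher and 2 lower, against 10.4% and 8.39% of all genes. Beside GRHL3, IFNLR1 had a log2 fold change of 0.010 and NIPAL3 one of -0.011. Beside ELF3, RNPEP had -0.0047 and GPR37L1 0.021. Beside KLF4, RAD23B had 0.089 and ACTL7B 0.093, and beside OVOL2, MGME1 had -0.067. KAT14, on its other side, was not analysed here. GPR37L1 and ACTL7B were under 6 in both groups and not known to exceed background. Nearest does not always mean close, as ACTL7B lies 1360 kb from KLF4.

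The genes whose 6 values were most like those of a factor that rose were found by the smallest root mean square difference after centring each gene on its own mean. They were MUC1 and KRT14 for GRHL3 (differences of 0.075 and 0.084 log2 units, r of 0.997 and 0.996 over the 6 arrays) and ISG15 and COBL for OVOL2 (0.038 and 0.048, r of 0.993 and 0.992). For KLF4 they were HRK and LEMD1 (0.051 and 0.053, r of 0.994 for both), and for ELF3 APCDD1 and GIRGL (0.10 and 0.12, r of 0.989 and 0.982). The 2 groups set most of each pattern, so likeness here mainly says that a gene changed by a similar amount.

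Genes known as targets of these factors were often higher. Of 34 measured, 13 were called higher and 0 lower, against 1.43% and 0.465% of all genes. At an unadjusted limma p under 0.05, 24 were higher and 0 lower, against 10.4% and 8.39% of all genes. Their median log2 fold change was 0.36, against 0.0066 for all genes. This list and those below were chosen with earlier results of these data known, so the counts are a description and not independent support. The highest log2 fold changes were those of KRT13, a keratin of stratified epithelia, and of the tight junction genes OCLN (2.15) and CGN (2.09). KRT13 had means of 4.63 and 9.03, and since the vector control level is under the array medians and not known to exceed background, its log2 fold change of 4.40 is a difference of array values and not a measured ratio of transcript levels. TGM1, the transglutaminase of the cornified envelope and a known GRHL3 target, gave means of 8.16 and 9.29 (log2 fold change 1.13, SE 0.075). CLDN7, a claudin of epithelial junctions, went from 10.10 to 11.62 (log2 fold change 1.53, SE 0.071), and PRSS8, the membrane protease prostasin, from 7.58 to 8.70 (log2 fold change 1.12, SE 0.074). CDH1, which encodes E-cadherin, gave 10.79, 10.87 and 10.91 in vector control and 11.95, 11.94 and 11.98 in CRB3-expressing cells, and its second probe set was also higher (1.04). KRT8, a keratin of luminal cells, and ID2, an inhibitor of basic helix-loop-helix factors that OVOL1 is known to repress, were higher as well (1.08 and 1.12).

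The smallest called rises were close to the fold threshold. CLDN4 had a log2 fold change of 0.69, with a second, dimmer probe set at -0.022. SPRR1B had 0.66 and MAL2 0.59. Without CRB3-expressing replicate 1 these 3 had 0.58, 0.65 and 0.55 and were not called. Without vector control replicate 2, SPRR1B and MAL2 had 0.55 and 0.53, and without CRB3-expressing replicate 3 SPRR1B had 0.59 (limma adjusted p = 0.0534), and none of these was called. EPCAM, ST14 and SPINT1, an adhesion protein, a membrane protease and its inhibitor, had log2 fold changes of 0.38, 0.37 and 0.35 with adjusted p-values from limma between 0.0148 and 0.0237, under the fold threshold. The desmosome genes DSP and PKP3, at 12.21 and 10.67 in vector control cells, had log2 fold changes of 0.046 and -0.034. DSG1, CLDN3, KRT4 and KRT19 were under 6 in both groups and not known to exceed background, with log2 fold changes of 0.021, 0.063, -0.029 and -0.17.

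**Figure D3:**
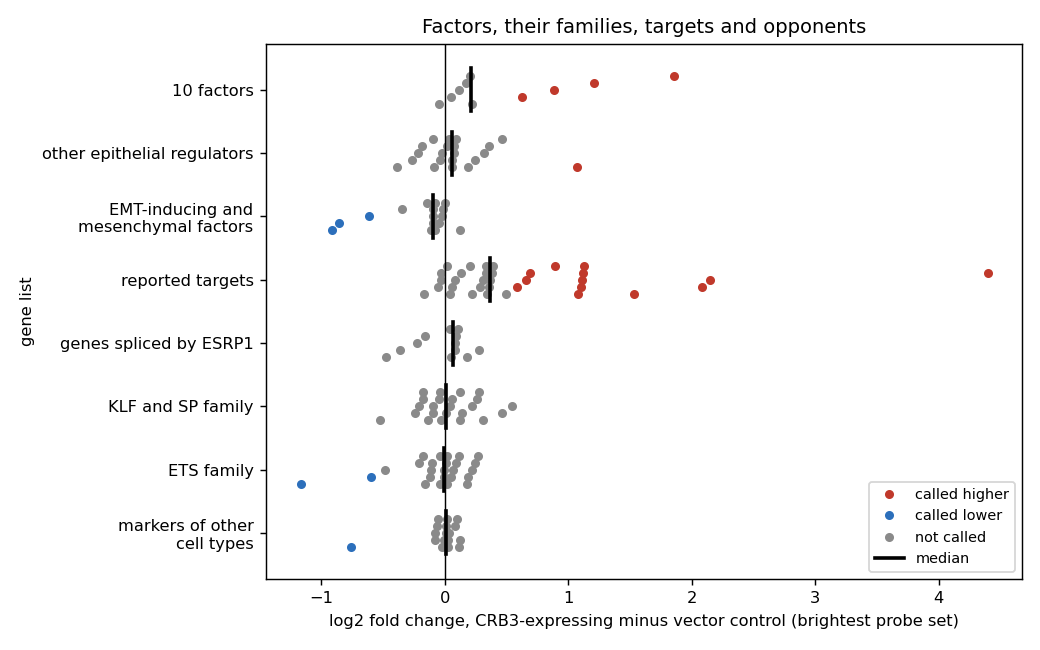
Log2 fold change of CRB3-expressing over vector control cells (x axis) of each measured gene in its brightest probe set for the 10 factors and 7 gene lists (y axis); red is called higher, blue called lower, grey not called, and black bars are medians. Red points are 4 of the factors, 13 of their reported targets and SOX9, blue points are 3 inducers of the mesenchymal state, 2 ETS genes and DCN, and neither the ESRP1-spliced genes nor the KLF and SP family has a coloured point.

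Among 16 inducers of the mesenchymal state and splicing factors tied to mesenchymal cells, 3 were lower and 0 higher, against 0.465% and 1.43% of all genes. At an unadjusted limma p under 0.05, 4 were lower and 0 higher, against 8.39% and 10.4% of all genes. The median was -0.094, and 6 of the 16 were under 6 in both groups. SNAI2, a zinc finger repressor of CDH1, had log2 values of 10.26, 10.28 and 10.30 in vector control and 9.51, 9.42 and 9.35 in CRB3-expressing cells. It fell by 0.86 on the log2 scale (SE 0.066), and the forkhead factor FOXC2 fell by 0.91 (SE 0.076). TCF4, a basic helix-loop-helix factor, fell by 0.61 (SE 0.12, limma adjusted p = 0.0233), from 7.43, 7.82 and 7.32 to 6.92, 6.90 and 6.92. This probe set lost its call without any one of the 3 CRB3-expressing arrays (-0.62, -0.60 and -0.61, adjusted p of 0.0763, 0.0956 and 0.0749 from limma) and without vector control replicate 2 (-0.46). Other TCF4 probe sets, one of nearly the same level among them, were called lower too (-0.64, -0.65, -0.63 and -0.62), while 3 were not (-0.41, -0.48 and 0.039).

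ZEB1 and ZEB2, the repressors that OVOL2 and the grainyhead-like factors are best known to oppose, were dim in both groups. The brightest ZEB1 probe set had means of 5.10 and 5.01 (log2 fold change -0.096, SE 0.17) and that of ZEB2 4.09 and 3.95 (-0.14, SE 0.069), so neither is shown to be above background. SNAI1 was dim as well, with means of 5.97 and 5.95 and a log2 fold change of -0.024. TWIST1, at means of 8.23 and 8.14, had one of -0.097. The splicing factors of mesenchymal cells RBFOX2 and QKI, at 10.01 and 11.59 in vector control cells, had -0.012 and -0.079.

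No gene among 12 known to be spliced by ESRP1 was called. Of all genes, 1.43% were called higher and 0.465% lower, so a list this short may hold no call. At an unadjusted limma p under 0.05, 1 of the 12 was higher and 3 were lower, against 10.4% and 8.39% of all genes. CD44, a hyaluronan receptor, had a log2 fold change of -0.36 (limma adjusted p = 0.00923) and the kinase gene SLK one of -0.47 (limma adjusted p = 0.0146), both under the fold threshold. The receptor FGFR2 had -0.22 and the actin regulator ENAH 0.11. These are levels of probe sets and not of single exons, so exon choice was not measured. CTNND1, another transcript that ESRP1 splices, was not analysed here.

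At an unadjusted limma p under 0.05, 4 of 21 other epithelial regulators were higher and 4 lower, against 10.4% and 8.39% of all genes. Of the 21, 1 was called higher and 0 lower, against 1.43% and 0.465% of all genes. It was SOX9, a high-mobility-group factor of mammary progenitors, at 6.96, 7.13 and 7.13 in vector control and 8.12, 8.11 and 8.21 in CRB3-expressing cells (log2 fold change 1.07, SE 0.071, limma adjusted p = 5.48e-05). Both SOX9 probe sets were called (1.07 and 1.11). GATA3, a luminal factor, had 0.36 and RBM47, an epithelial RNA-binding protein, -0.38 (adjusted p of 0.0252 and 0.0449 from limma), under the fold threshold and named after their values were seen. TP63, the p63 factor of basal cells, was not analysed here.

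In the wider families of the factors, only ETS genes were called. Among all genes, 1.43% were called higher and 0.465% lower, and at an unadjusted limma p under 0.05 the shares were 10.4% and 8.39%. Of 23 other KLF and SP genes, 0 were called, and at these shares a list this short may hold no call. At an unadjusted limma p under 0.05, 6 were higher and 3 lower, and the median was 0.011. KLF6 and SP6 had log2 fold changes of 0.46 and 0.54. SP6 was called without vector control replicate 2 (0.62), and KLF9 (-0.52, named after its value was seen) was called lower without CRB3-expressing replicate 1 (-0.60) or vector control replicate 1 (-0.64). Of 25 other ETS genes, 0 were higher and 2 lower, with 2 higher and 5 lower at an unadjusted limma p under 0.05. ETV1, of the PEA3 group, fell by 1.17 on the log2 scale (SE 0.079), from 8.03 to 6.86, with its other 4 probe sets between -0.49 and -0.35 and not called. ETV4, of the same group, fell by 0.60 (SE 0.12) from 9.31 to 8.71. It was not called without CRB3-expressing replicate 1 or 2 or vector control replicate 1 or 3 (-0.56, -0.52, -0.58 and -0.53), nor in its second probe set (-0.52).

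**Figure D4:**
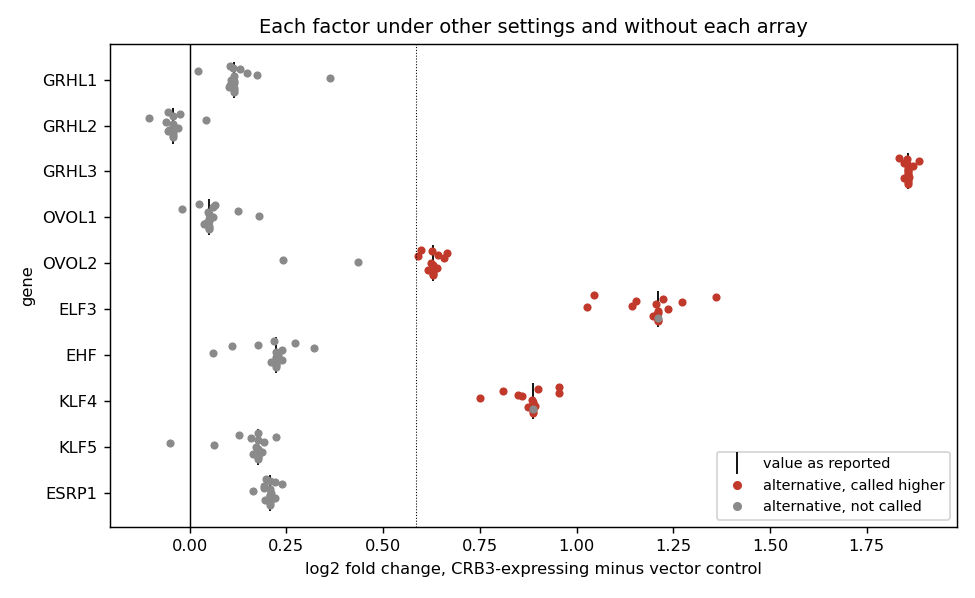
Log2 fold change of CRB3-expressing over vector control cells (x axis) of each factor (y axis) as reported (black line) and under each alternative except other fold thresholds and treat, or without each array (points, red where called higher, grey where not); the dotted line marks a 1.5-fold change. GRHL3 stays between 1.83 and 1.89, OVOL2 lies next to the fold threshold and reaches 0.24 in its dimmer probe set, and ELF3 and KLF4 each have 1 grey point, where the variance was not moderated.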

How the data were processed

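RNA of 6 MCF-10A samples was hybridized to 6 Affymetrix Human Genome U133 Plus arrays. Background correction and normalization were done by the authors with RMA in R, and the deposited table holds log2 values, 1 for each probe set on each array. Versions of these tools are not given in the sources used here. The values were used as deposited. They carry no detection calls, so a mean log2 value under 6 is described only as dim. Precision is limited by the number of arrays.

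Groups came from the sample titles. Differences (CRB3-expressing minus vector control) were fitted by lmFit and eBayes (limma 3.58.1, R 4.3.3), two-sided, with Benjamini-Hochberg adjustment over 54613 probe sets; 62 control probe sets were left out. Genes were named from the platform annotation, with symbols checked against RefSeq of GRCh38.p14 (0 changed, 54 identifiers were not in that table). Of the probe sets, 41091 had 1 symbol, 1801 had several and 11721 had none. The steps were tested on simulated data. Array medians lay between 5.84 and 5.88, and arrays correlated across probe sets at a Pearson's r of 0.997 to 0.998 within groups and 0.994 to 0.996 across groups.

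The members and the gene lists were chosen with earlier results of these data known. Lists share genes, so their counts are not separate. For example, KLF6 is among the other epithelial regulators and the KLF and SP genes. CDH1, KRT8, EPCAM and KRT18 are among the mammary epithelial markers and the reported targets. Named are all 10 members and CRB3; in each list up to 6 called genes (the 3 highest and 3 lowest), or, in a list with no call, the 2 of lowest p; a fixed set of opposing factors and ESRP1 targets; the neighbours and most similar genes of called members. Further target genes, probe set details, GATA3, RBM47, KLF9 and markers were named after their values were seen. Alternatives were the replicate number as a block, other variance priors, median-centring, quantile normalization, filters on dim probe sets, array weights, other fold thresholds, treat, other probe sets of a gene, and leaving out each array.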

Additional observations from a re-analysis of the deposited data

How the results depend on the processing

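Under the alternatives, GRHL3 was called in every one that was run. With each probe set's own pooled variance and no moderation by limma, 2 member genes (GRHL3 and OVOL2) and 2 of their probe sets were called higher, with adjusted p = 0.106 for ELF3 and adjusted p = 0.0658 for KLF4, and 1 ETS gene was lower. At a fold change above 2, 2 members (GRHL3 and ELF3) and 3 probe sets were higher, 0 mesenchymal factors and 1 ETS gene lower. Limma's treat against 1.5-fold called 1 member (GRHL3) and 1 probe set higher, 8 reported targets higher, 0 mesenchymal factors and 1 ETS gene lower. Without a fold threshold, 22 targets, 3 other epithelial regulators, 2 KLF or SP genes and 1 ESRP1-spliced gene were higher, and 1, 1 and 2 of the last 3 lists, in that order, were lower. KLF6 counts here both as an epithelial regulator and as a KLF gene. Leaving out the suffixes _s_at and _x_at (probe sets that can be shared between transcripts) left 2 members (GRHL3 and ELF3) and 4 probe sets called, with no KLF4 probe set remaining, OVOL2 at 0.24, KLF5 at -0.051 (sign turned) and 0 other epithelial regulators higher. Leaving out probe sets with a mean under 6 left 5 member probe sets called. As the mean over probe sets, OVOL2 was at 0.44 and not called, and 0 ETS genes were lower. With any probe set counted, 5 members were higher, GRHL1 added.

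Without each array in turn, 4 member genes and 6 to 8 of the 23 probe sets were higher, 1 to 2 ETS genes lower, 0 to 1 KLF or SP genes lower and 0 to 1 higher. GRHL2 ranged from -0.11 to 0.042 (sign turned without CRB3-expressing replicate 2) and OVOL1 from -0.021 to 0.12 (sign turned without CRB3-expressing replicate 3). Leaving aside the other fold thresholds and treat, 150 of the members' fold changes under alternatives kept direction and call, 4 lost the call and 3 turned.

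Pairing of the samples by replicate number was not detected. Deviations of same-numbered arrays from their group means correlated at -0.085, 0.064 and 0.029, and 2 of 6 arrays correlated best with their own number. These values cannot show that the samples were unpaired. With the replicate number as a block, the same 4 members and 8 probe sets were called. GRHL2, ZEB1, ZEB2, SNAI1 and the other genes under 6 in both groups are not known to exceed background, and their fold changes set no limit on a change of the gene.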
